A study of Homo sapiens with 5 samples.

Results

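In the VPR control sample of the breast cancer line MDA-MB-468, 814 of 2595 kept cells carried 3 or more UMIs (unique transcript tags) of S100A7, and these are called S100A7-positive here. They were 814 of the 14642 kept cells of the series. A cell was kept when 1500 or more genes were detected in it and mitochondrial genes gave no more than 20% of its UMIs. The positive cells were set against cells of the same sample with 0 S100A7 UMIs, of which there were 1316. For each positive cell the zero cell nearest in total UMIs was taken, without replacement, so that 814 zero cells entered the comparison. Cells with 1 or 2 S100A7 UMIs (465 in number) belonged to neither class. The classes were thus chosen by a measured value, and everything in the VPR control that separates them is given as a description, with no test.

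MDA-MB-468 is an established line of human triple-negative, basal-like breast cancer. All 5 samples are this line: the VPR control, the HA control, the HA FOSL1 sample, and VPR FOSL1 samples made with the guides gRNA2 and gRNA3. Each was stained with its own hashtag antibody, and the pool was sequenced as 1 library of 3' tags, so every group is 1 sample. The labels speak of 5-fluorouracil treatment for the series in general without saying which samples received it, do not spell out VPR or HA, and do not say whether a sample is 1 clone.

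S100A7, also called psoriasin, is a small calcium-binding protein of the S100 family, first described in psoriatic skin and made by keratinocytes and by some breast tumours. It lies in the epidermal differentiation complex of the long arm of chromosome 1, beside S100A8 and S100A9, whose products pair to form calprotectin, an antimicrobial protein of neutrophils and of stressed or inflamed epithelium. Many genes of that complex are switched on as squamous cells mature. In the reference annotation (GRCh38.p14) S100A7 spans chr1:153457744-153460651.

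The start regions of S100A7 and of the cluster genes with the highest ratios at 20 CPM or more are shown here because the 3 genes lie in 1 cluster and each window holds the letters of a TATA box. Each is a window of 300 bases around an annotated start (RefSeq, GRCh38.p14), and capitals mark TATAAA. S100A7 is read on the minus strand at chr1:153460602-153460901, S100A8 on the minus strand at chr1:153391024-153391323, and S100A9 on the plus strand at chr1:153357604-153357903. S100A8 has 3 such windows, and the one printed was chosen for its TATAAA. Another of them overlaps it and holds the same TATAAA, which there begins 126 bases before that window's own start. The spacing given below for S100A8 thus follows from the window chosen.
S100A7: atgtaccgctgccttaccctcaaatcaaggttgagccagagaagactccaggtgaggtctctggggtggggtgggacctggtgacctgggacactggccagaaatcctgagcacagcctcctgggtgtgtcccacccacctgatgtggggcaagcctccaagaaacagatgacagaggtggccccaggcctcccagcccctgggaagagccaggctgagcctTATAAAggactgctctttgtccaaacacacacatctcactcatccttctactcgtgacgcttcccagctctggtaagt
S100A8: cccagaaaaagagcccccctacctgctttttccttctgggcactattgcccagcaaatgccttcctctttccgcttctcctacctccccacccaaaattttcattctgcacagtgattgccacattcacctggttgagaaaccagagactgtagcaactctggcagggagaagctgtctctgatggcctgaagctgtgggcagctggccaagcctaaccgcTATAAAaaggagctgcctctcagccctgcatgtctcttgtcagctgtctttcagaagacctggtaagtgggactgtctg
S100A9: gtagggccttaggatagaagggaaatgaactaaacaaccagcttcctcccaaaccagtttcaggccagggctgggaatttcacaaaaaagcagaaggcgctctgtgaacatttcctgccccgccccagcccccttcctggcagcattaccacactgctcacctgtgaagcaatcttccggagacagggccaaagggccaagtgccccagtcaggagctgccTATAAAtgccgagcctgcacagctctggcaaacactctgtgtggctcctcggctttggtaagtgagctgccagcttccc
The motif began 28 bases before the start in S100A7 and 29 bases before it in S100A8 and S100A9. Neither TGANTCA, a motif of AP-1, nor GGAATG, a motif of TEAD factors, was found on either strand in these windows.

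S100A7 was unevenly spread over the cells of the VPR control. The positive cells were 31.4% of the sample (exact binomial interval 29.6% to 33.2%) and held 95.8% of its S100A7 UMIs. A positive cell held a median of 10 S100A7 UMIs, with quartiles of 5 and 20 and a highest value of 169. Summed over the positive cells, S100A7 stood at 944 CPM, that is its UMIs scaled to all gene UMIs of those cells, and over all kept cells at 315 CPM. At the edge of the rule, 99 cells held 3 S100A7 UMIs and 133 held 2. Intervals cover counting error only throughout.

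Positive cells were more frequent in the VPR control than in the other 4 samples. They were 11.4% of HA control cells (386), 10.2% of HA FOSL1 cells (186), 8.93% of gRNA2 cells (227) and 10.7% of gRNA3 cells (460). S100A7 over all kept cells was 315 CPM in the VPR control, against 110 CPM in the HA control, 91.4 CPM in HA FOSL1, 65.7 CPM with gRNA2 and 77.8 CPM with gRNA3. After every cell was thinned to 5000 UMIs, the share with 3 or more was 17.7% in the VPR control, against 5.73%, 4.46%, 3.35% and 3.82% in the same order of the others. With 1 sample a group these are values without a test. Empty droplets (barcodes of 10 to 100 UMIs) held S100A7 at 167 CPM. With 5% of each class taken off as free RNA, 36 genes were 1.5-fold higher and 73 lower in positive cells, against 32 and 63 without that step.

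**Figure D1:**
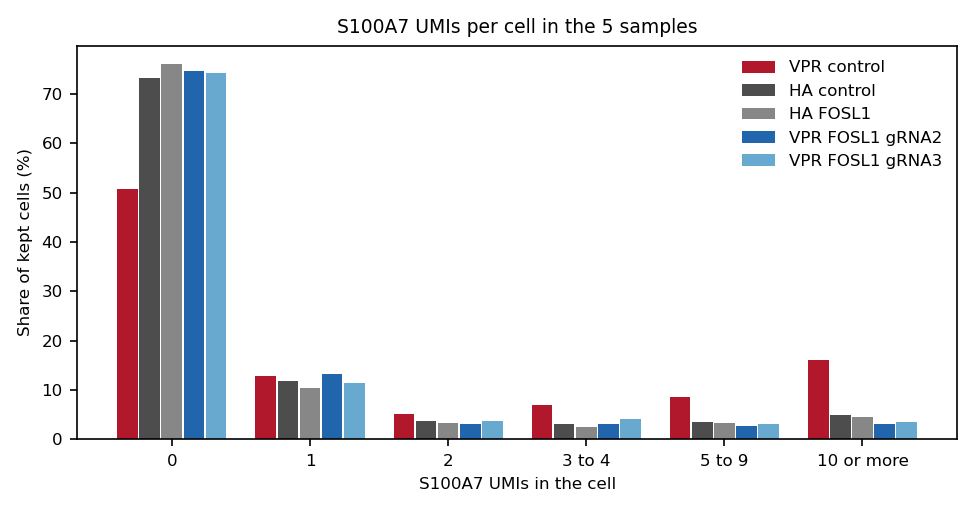
Share of kept cells (vertical axis, %) by the number of S100A7 UMIs in the cell (horizontal axis) in each of the 5 samples, 1 bar a sample with the VPR control leftmost. In the VPR control 15.99% of cells held 10 or more UMIs, against 3.03% to 4.85% in the other samples, and 50.7% held none, against 73.2% to 76.1%.

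The matched classes had like depth. The positive cells summed to 14281468 UMIs and the zero cells to 14239063, with medians of 15809.5 and 15809 UMIs and of 4137.5 and 4142 genes per cell. The mitochondrial share was 11.82% in positive cells and 10.997% in zero cells. The label held as far as markers go: EPCAM stood at 337 CPM in positive and 344 CPM in zero cells, and 7 markers of the line summed to 8101 CPM in positive and 8890 CPM in zero cells; 4 of the 7 were called lower in the other 4 samples. Markers of other cell types were near 0 in both classes. Stromal and endothelial markers summed to 3.78 CPM in positive and 4.07 CPM in zero cells, with 6 of 9 at 0 UMIs in positive cells. Neutrophil and myeloid markers, of interest because neutrophils are rich in calprotectin, summed to 2.52 and 1.69 CPM, with 4 of 9 at 0. Immune markers summed to 27.9 and 13.6 CPM with 7 of 10 at 0, and nearly all of it was CD14.

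Most genes stood at much the same level in both classes. Of the 5730 genes that averaged 20 CPM or more over the classes, 32 (0.558%) were 1.5-fold higher in positive cells and 63 (1.1%) were 1.5-fold lower, on the scale of log2 CPM + 1 with S100A7 left out of the totals. The median log2 ratio was -0.02, and 90% of genes lay between -0.28 and 0.25. At 2-fold, 7 genes (0.122%) were higher and 13 (0.227%) lower. The highest ratios were those of S100A8, S100A9, SELENOP and CYP1B1, and the lowest those of INHBA, DKK1, IGFBP5 and CST6.

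Among genes at 20 CPM or more, the calprotectin genes had the highest ratios. S100A8 was at 814 CPM in positive cells and 81.7 CPM in zero cells (log2 ratio 3.30, counting interval 3.21 to 3.39), and 97.2% of positive but 49.5% of zero cells held a UMI of it. S100A9 was at 3830 CPM in positive cells and 917 CPM in zero cells (2.06, 2.03 to 2.09) and was found in 100% and 98.9% of cells. Each partner was higher in positive cells. Empty droplets held S100A8 at 185 CPM and S100A9 at 1201 CPM, above the level of each in zero cells. A single UMI of either in a zero cell cannot be told apart from free RNA. In zero cells of the other samples, from the same pool, S100A9 was at 974 CPM in the HA control and 355 CPM in HA FOSL1. It was at 374 CPM with gRNA2 and 354 CPM with gRNA3. How much of the level in zero cells is free RNA was not tested.

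Of the 17 S100 genes besides S100A7, 10 reached 20 CPM, with a median log2 ratio of 0.27 and 8 above 0. All 10 lie on the long arm of chromosome 1. Of the 255 other genes of that arm at 20 CPM or more, 78.8% lay above 0, against 45.3% of all genes. Their median was 0.13. Whether the S100 genes shifted apart from their arm was not tested. S100A14 was at 447 CPM in positive and 310 CPM in zero cells (0.52), S100A4 at 403 and 313 CPM (0.36), S100A13 at 455 and 367 CPM (0.31), S100A16 at 587 and 499 CPM (0.23), S100A11 at 1577 and 1370 CPM (0.20) and S100A6 at 3234 and 2866 CPM (0.17). S100A10, the partner of annexin A2, was at 879 and 917 CPM (-0.06), and S100A2, a p63 target of basal cells, was at 139 CPM in positive and 184 CPM in zero cells (-0.41). In the other 4 samples edgeR called 6 of 14 S100 genes higher and 0 lower at an adjusted p under 0.05, where 3.39% and 3.74% of all genes tested were called: S100A7A, S100A8, S100A9, S100A11, S100A13 and S100A14. S100A7A was listed at 0 in the zero cells of 3 of these samples and passed the filter on low counts through the positive cells, so its call carries no weight of its own. S100A7A, a near-identical copy of S100A7, had 85 UMIs in positive and 3 in zero cells (2.52, 2.04 to 2.77), and reads of the copies may be split or shared between them. S100B had 0 UMIs in both classes.

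The other high genes have varied roles. SELENOP, a selenium carrier, was at 97.2 CPM in positive and 30.5 CPM in zero cells (log2 1.64), CYP1B1, a cytochrome P450 that oxidises oestrogens and hydrocarbons, at 211 and 89.7 CPM (1.23), and the secreted chaperone clusterin (CLU) at 109 and 50.7 CPM (1.08). CD14, a receptor for bacterial lipopolysaccharide, was at 27.5 and 12.7 CPM (1.05), and ALDH3B2, an aldehyde dehydrogenase, at 73.7 and 35.4 CPM (1.04). LY6D, a surface protein of squamous cells, was at 44.3 and 21.7 CPM (1.00), and CASP14, the caspase of cornification, at 88.0 and 44.6 CPM (0.97). RARRES3, a retinoid-responsive phospholipase, was at 444 and 234 CPM (0.92), the mucin MUC1 at 71.9 and 40.0 CPM (0.83), and CYP4X1, HMGN5, the amino acid carrier SLC6A14 and NAV1 had ratios of 0.87, 0.83, 0.83 and 0.82.

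The genes with the lowest ratios have varied roles too. INHBA, the activin A subunit, was at 10.4 CPM in positive and 47.7 CPM in zero cells (log2 -2.09, -2.33 to -1.85). The Wnt antagonist DKK1 was at 30.9 and 99.8 CPM (-1.66) and IGFBP5, which binds insulin-like growth factors, at 371 and 1129 CPM (-1.60). The protease inhibitors CST6 and TFPI2 were at 14.4 and 43.4 CPM (-1.53) and at 55.8 and 145 CPM (-1.37). Caveolin-1 (CAV1), the coat protein of caveolae, was at 163 and 389 CPM (-1.25), and its partner CAVIN1 at 72.1 and 144 CPM (-0.99). The smooth-muscle actin-binding protein TAGLN was at 16.7 and 48.7 CPM (-1.49), the matricellular protein THBS1 at 66.9 and 138 CPM (-1.03), and TIMP3, an inhibitor of metalloproteases, at 56.7 and 116 CPM (-1.02). CTNNAL1 (-1.50), SLITRK6 (-1.35), the nuclear receptor gene NR2F2 (-1.02), GABARAPL1 (-1.02) and the protease gene PRSS23 (-0.99) complete the 15.

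The other 4 samples, whose cells the rule did not use, gave the test. UMIs were summed per sample and class under the same rule, and edgeR's quasi-likelihood test with sample as a block compared positive with zero cells. It called 402 genes higher (3.39% of 11862 tested) and 444 lower (3.74%) at an adjusted p under 0.05. All 15 genes named as high in the VPR control were called higher there, on the same side in 4 of 4 samples, and all 15 named as low were called lower, 14 of them on the same side in 4 of 4. The exception was TFPI2, with a log2 ratio of 0.33 in HA FOSL1 and between -1.66 and -0.52 in the other 3. Side alone was counted here. IGFBP5 hardly differed in HA FOSL1, at 442 CPM in positive and 453 CPM in zero cells (-0.03, -0.13 to 0.06). Counting intervals also held 0 for CST6, GABARAPL1, SLITRK6 and NAV1 with gRNA2 and for SLC6A14 with gRNA3. Of the 32 genes 1.5-fold higher in the VPR control 30 were called higher (93.8%), and of the 63 lower 50 were called lower (79.4%). The samples come from 1 pool of 1 line. With sample as a block, the p-values weigh the difference between classes against its spread across these 4 samples, not against the spread between samples. Without the block no gene passed (unadjusted p under 0.05 in 523 higher and 461 lower genes). The counts were 200 and 222 without the HA control, 214 and 240 without gRNA2, and 219 and 208 without gRNA3. TFPI2 was no longer called without any 1 of these 3, nor NAV1 without the HA control, and DESeq2 did not call TFPI2, NAV1, TAGLN, IGFBP5 or CST6.

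FOSL1, which encodes the AP-1 subunit FRA-1 and is the gene that the study set out to raise, marks the samples. A FOSL1 UMI was found in 8.35% of positive and 14.4% of zero cells of the VPR control, in 8.55% and 12.4% in the HA control, 29.0% and 51.6% in HA FOSL1, 61.7% and 68.3% with gRNA2, and 61.1% and 64.1% with gRNA3. It was more frequent in the 3 samples labelled FOSL1, and less frequent in positive than in zero cells of each sample. The counting intervals of the classes overlapped in the HA control, with gRNA2 and with gRNA3 (56.5% to 65.6% against 59.6% to 68.5% with gRNA3). They lay apart in the VPR control and in HA FOSL1. FOSL1 fell by 0.48 on the log2 scale in the 4 samples (SE 0.09, edgeR adjusted p = 0.00387).

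S100A8 rose by 3.99 on the log2 scale in those samples (SE 0.12, edgeR adjusted p = 3.18e-11), higher in 4 of 4. Its level in positive against zero cells was 1116 against 89.9 CPM in the HA control, 679 against 22.4 CPM in HA FOSL1, 290 against 21.4 CPM with gRNA2 and 314 against 19.4 CPM with gRNA3. The positive cells of each sample stood above all zero classes. S100A9 rose by 2.50 (SE 0.09, edgeR adjusted p = 2.66e-10). SELENOP rose by 1.87 (SE 0.16, edgeR adjusted p = 4.93e-06), CLU by 1.27 and CYP1B1 by 1.01, each in 4 of 4 samples. The retinol dehydrogenase gene RDH10 (1.30) and TNFSF10, which encodes the death ligand TRAIL (1.08), were also among the 10 largest rises of genes that averaged 20 CPM or more over the 8 summed profiles, and stood at 0.77 and 0.73 in the VPR control.

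INHBA fell by 1.503 (SE 0.14, edgeR adjusted p = 1.49e-05), lower in 4 of 4 samples, at 11.3 against 56.6 CPM in the HA control, 94.1 against 180 CPM in HA FOSL1, 13.1 against 41.3 CPM with gRNA2 and 16.2 against 52.6 CPM with gRNA3. INHBA in HA FOSL1 positive cells was thus above the zero cells of every other sample, while still below its own. CAV1 fell by 0.89 (SE 0.11, edgeR adjusted p = 0.000191), at 127 against 345 CPM in the HA control, 656 against 1521 CPM in HA FOSL1, 643 against 854 CPM with gRNA2 and 702 against 1080 CPM with gRNA3, and DKK1 by 1.01 (SE 0.12, edgeR adjusted p = 0.000129). ADAMTS1, a secreted metalloprotease, fell by 1.14 and IL7R, the interleukin-7 receptor, by 1.09; in the VPR control they stood at 9.39 against 29.0 CPM and 5.19 against 19.4 CPM, below the mean of 20 CPM that the description used.

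**Figure D2:**
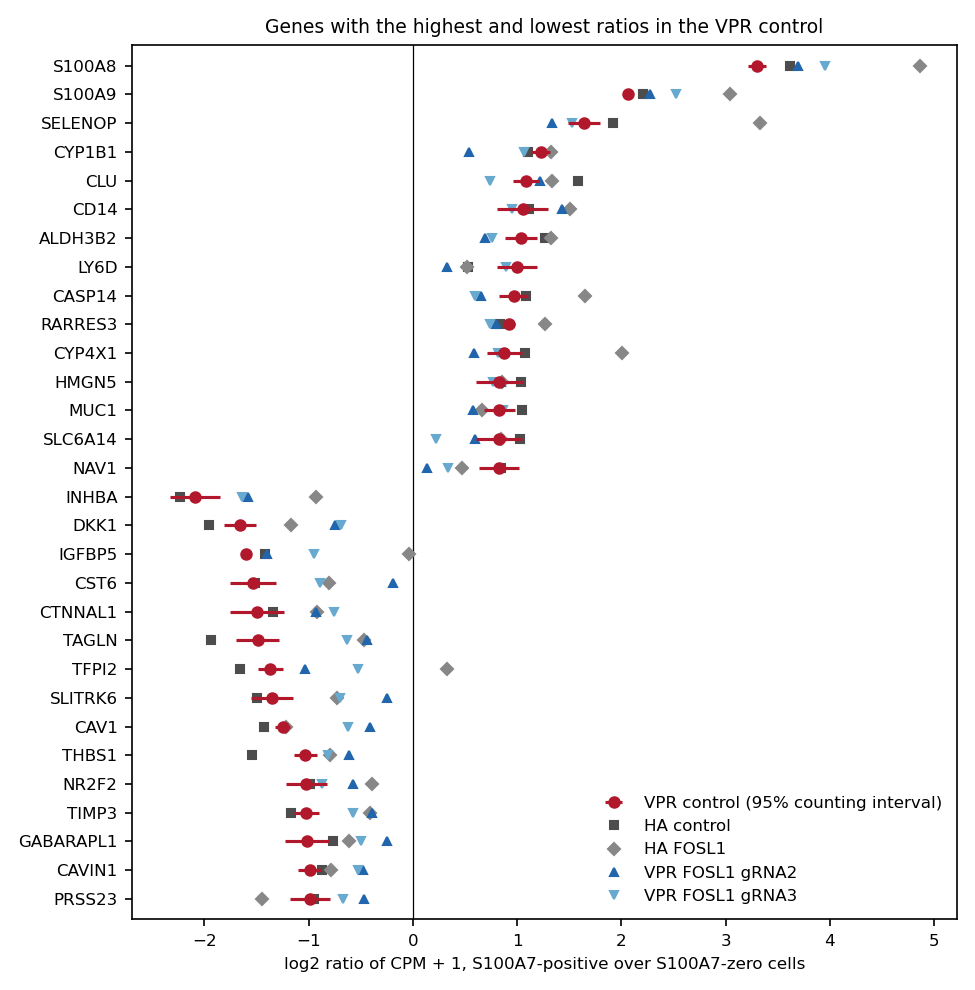
Log2 ratio of CPM + 1 in S100A7-positive over zero cells (horizontal axis) for the 15 genes highest and 15 lowest in the VPR control (rows), with its 95% counting interval for the VPR control (red) and the values of the other 4 samples. Points of the upper 15 genes all lie right of 0, and of the lower 15 only TFPI2 in HA FOSL1, at 0.33, lies right of it.

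Gene groups differed in direction (lists are described by counts and medians). Against these counts, 3.39% of all genes tested in the other 4 samples were called higher and 3.74% lower, with a median log2 fold change of 0.00, and 45.3% of genes at 20 CPM in the VPR control lay above 0. Targets of YAP and TEAD, the transcription complex of spread, tense cells, were lower together: 7 of 7 members at 20 CPM lay below 0, with a median of -0.41, and 7 of 10 were called lower in the other samples and 0 higher. CTGF was at 85.5 CPM in positive and 155 CPM in zero cells of the VPR control, CYR61 at 185 and 246 CPM, and ANKRD1 at 13.8 and 26.4 CPM. Mesenchymal genes had a median of -0.67 over 3 members, and 3 of 5 were called lower (TAGLN, TPM2 and CALD1), none higher. These 3 encode actin-binding proteins. VIM, the vimentin gene on the list, lay the other way under 20 CPM, with 160 UMIs in positive and 111 in zero cells (0.47, 0.15 to 0.80), and was not called. Hemidesmosome and basal integrin genes, which anchor basal cells, had 6 of 6 members below 0, a median of -0.25, and 3 of 9 called lower, including ITGA3 (-0.53 in the VPR control). Among basal keratins KRT17 (461 and 711 CPM) and KRT16 (65.1 and 102 CPM) were called lower and KRT15 (45.6 and 33.8 CPM) higher, out of 6 tested. KRT14 differed in direction. It was at 58.5 and 43.9 CPM in the VPR control (0.41), but at -0.53 in the other samples, where it was not called (edgeR adjusted p = 0.238). The simple keratins KRT7, KRT8 and KRT18 were called lower, and KRT19 (2328 and 2044 CPM) was not called.

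Luminal and apocrine secreted proteins had a median of 0.56, but over 3 of 12 members, and 7 of the 12 had 0 UMIs in positive cells. Shares of all genes called were, as above, 3.39% higher and 3.74% lower. AZGP1, a zinc-binding secreted glycoprotein, was at 917 CPM in positive and 641 CPM in zero cells, and it and CLU were the 2 of 3 called higher. Secreted defence genes had 3 of 9 called higher, among them the protease inhibitor SLPI (710 and 429 CPM) and MUC1, whereas LCN2 (166 and 176 CPM) and SAA1 (165 and 209 CPM) were not called. Cornified-envelope genes had 3 of 10 called higher (LY6D, CALML5 and CNFN) and KRT80 lower, and 17 of the 32 listed had 0 UMIs in positive cells, so the squamous programme was detected in part. MHC class I genes had 7 of 12 called higher and none lower, with a median of 0.10 in the VPR control: B2M was at 969 and 870 CPM, HLA-B at 485 and 422 CPM and HLA-C at 422 and 367 CPM. Of the NRF2 targets and aldo-keto reductases 5 of 12 were called higher, among them AKR1C3 (4.14 and 1.69 CPM), AKR1B10 (16.1 and 6.95 CPM) and AKR1C2 (195 and 128 CPM), whose near copies can share reads. Immediate early genes had 5 of 13 called higher, with FOS at 71.1 and 42.8 CPM and EGR1 at 101 and 70.2 CPM, and the 1 called lower was FOSL1. The list's median was 0.29 over 10 members at 20 CPM but -0.02 with members down to 5 CPM.

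Cell-cycle genes differed little in size. Genes of G2 and M phase had a median log2 ratio of -0.11 in the VPR control, with 45 of 49 below 0 where 45.3% of all genes lay above it, and 21 of 53 were called lower, against 3.74% of all genes tested, and none higher. MKI67 was at 151 CPM in positive and 163 CPM in zero cells, and TOP2A at 263 and 259 CPM. S phase genes had a median of -0.08, with 1 of 40 called higher and 1 lower. EGFR, which this line carries in many copies, was at 1562 and 2025 CPM (-0.37) and fell by 0.34 in the other samples (edgeR adjusted p = 3.97e-06, 4 of 4 samples). GADD45A fell by 0.47 there, and was at 116 and 172 CPM in the VPR control. Hypoxia genes had a median of -0.07 and heat shock genes of 0.00 in the VPR control. Of the response to NF-kB, interleukin-1 and interleukin-17, 1 of 11 genes tested was called higher, NFKBIZ (80.4 and 55.7 CPM), and 0 lower. Of all genes tested, 3.39% were called higher and 3.74% lower. The list's median in the VPR control was -0.41 over 4 members at 20 CPM. The neutrophil attractants CXCL8 (7.36 and 29.9 CPM) and CXCL1 (5.89 and 20.4 CPM) stood low in positive cells there. They were not called in the other samples (edgeR adjusted p = 0.444 and 0.0656).

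**Figure D3:**
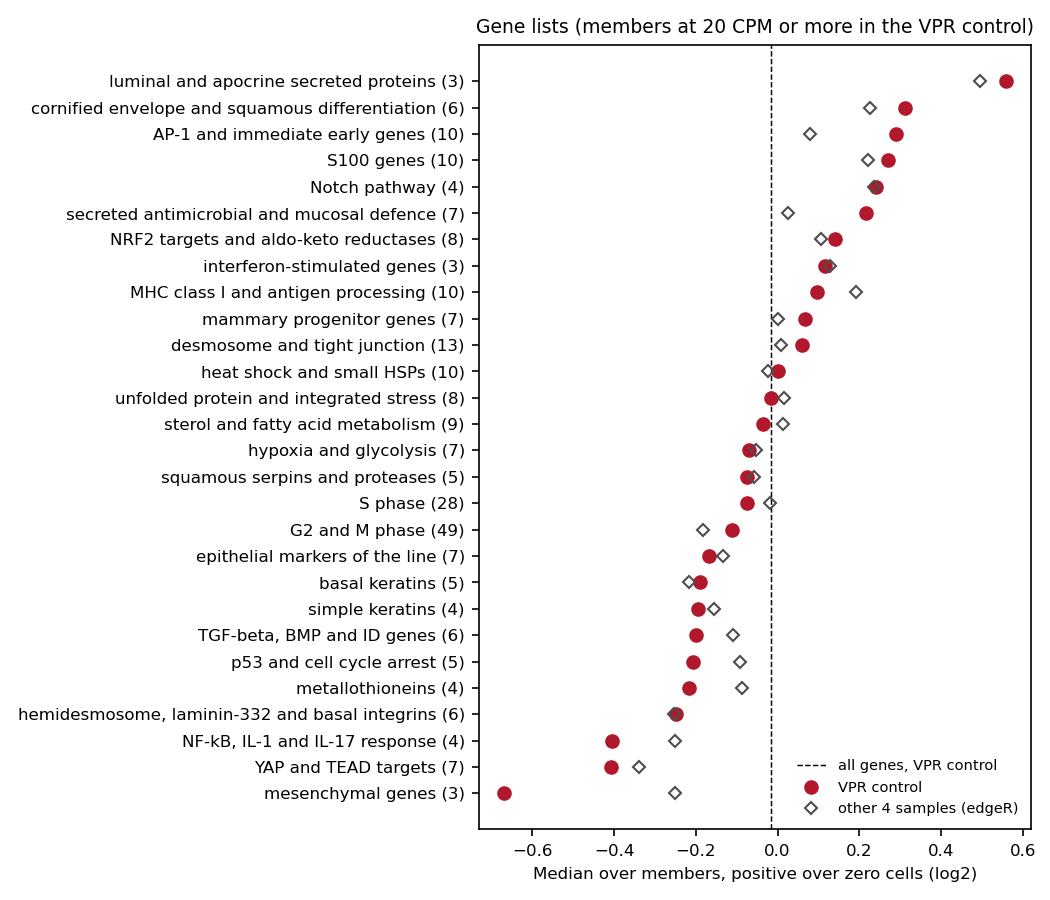
Median log2 ratio of each gene list (rows, with the number of members at 20 CPM or more) in S100A7-positive over zero cells of the VPR control (red), beside the median edgeR log2 fold change over the members tested in the other 4 samples (open diamonds); lists with at least 3 such members are drawn, and the dashed line is the median of all genes in the VPR control. Luminal and apocrine proteins stand at 0.56 and mesenchymal genes at -0.67, the highest and lowest red points.

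Levels differed with the number of S100A7 UMIs, in order through all 6 bins for 3 of the 15 high genes (S100A8, S100A9 and CYP1B1) and 3 of the 15 low genes (CTNNAL1, THBS1 and TIMP3), and out of order in places for the rest. From cells with 0 UMIs through 1, 2, 3 to 4, 5 to 9 and 10 or more, S100A8 was at 86.8, 180, 312, 491, 578 and 1073 CPM, and S100A9 at 939, 1468, 2054, 2780, 3087 and 4663 CPM. CYP1B1 ran from 93.7 CPM at 0 UMIs to 231 CPM at 10 or more. Of the low genes, CAV1 was at 369, 305, 214, 176, 176 and 150 CPM over the same bins, and IGFBP5 at 1093, 716, 472, 494, 394 and 308 CPM. Cells with 10 or more UMIs lay beyond cells with 3 to 4 in 15 of the 15 high genes and 14 of the 15 low genes, all but CAVIN1. The genes were chosen for their ratios in these same cells, so the order of the bins follows in part from that choice. It is a description and no support, and the share of all genes so ordered was not taken. Median depth stayed between 15527 and 16299.5 UMIs across the bins. The cells with exactly 2 UMIs, just outside the rule, held S100A8 at 312 CPM, and those with exactly 3, just inside it, at 462 CPM.

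**Figure D4:**
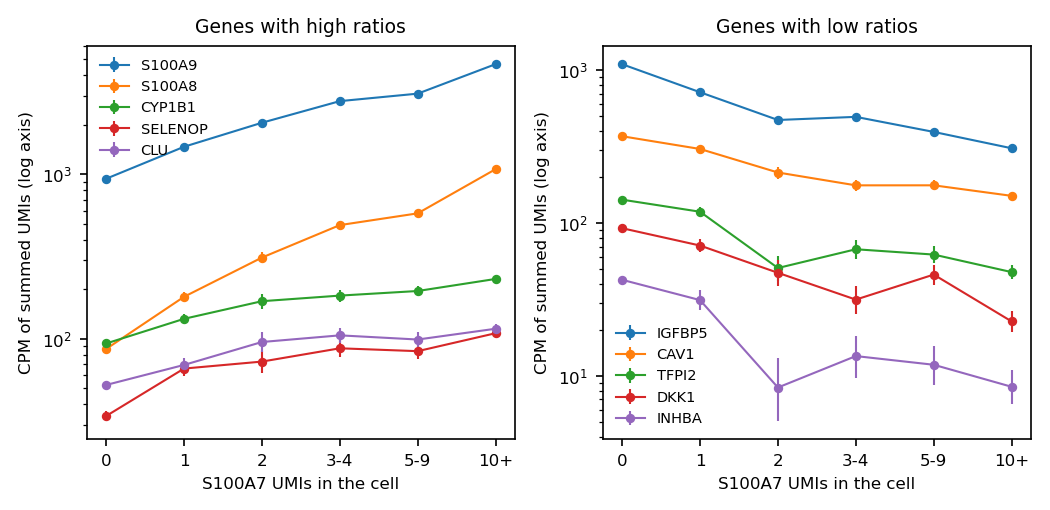
Level in CPM of summed UMIs (log axis, with exact Poisson intervals for counting error) of 5 genes high and 5 genes low in S100A7-positive cells of the VPR control, against the number of S100A7 UMIs in the cell. S100A8 runs from 86.8 to 1073 CPM and CAV1 from 369 to 150 CPM from the first bin to the last.

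A further feature, seen only after the values were examined, was the place of the shifted genes. The rule used S100A7, which itself lies on the long arm of chromosome 1. That arm is thus not independent of the choice of cells. Among 255 genes of the long arm of chromosome 1 at 20 CPM or more, S100 genes left out, the median log2 ratio was 0.13 in the VPR control and 78.8% lay above 0, against 45.3% of all genes. The short arm of the same chromosome had a median of -0.01 over 386 genes. Its share of a cell's nuclear-gene UMIs had a median of 6.72% in positive and 6.74% in zero cells of the VPR control. The 10th percentiles of that share were 6.26% and 5.59%, so some zero cells held little RNA of the short arm. The long arm was at 0.09 in the HA control, 0.09 in HA FOSL1, 0.07 with gRNA2 and 0.12 with gRNA3. Each 20-Mb window of the long arm with more than 2 genes had a median above 0 in the VPR control, of 0.07 to 0.15. The last one, of 11 genes, was at -0.03 in both the HA control and HA FOSL1. Chromosome 9 lay lower, with a median of -0.08 over 209 genes and 25.8% above 0, and at -0.07, -0.10, -0.08 and -0.06 in the other samples. The other 22 regions lay between -0.04 and 0.00 in the VPR control and between -0.11 and 0.07 in the other samples. The lowest of these 22 was at -0.09 in the HA control and -0.11 in HA FOSL1, below chromosome 9 in both. It was at -0.07 with gRNA2 and -0.04 with gRNA3.

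Cell by cell, the share of nuclear-gene UMIs that came from the long arm, S100 genes left out, had 2 modes. The bins with most cells began at 3.2% and at 4.3%, and a line was set at 3.95%, the middle of the emptiest bin between them over all kept VPR control cells whatever their S100A7. At or above it lay 337 of 814 positive cells (41.4%, 37.99% to 44.87%) and 88 of 814 zero cells (10.8%, 8.76% to 13.1%), and 70 and 28 cells lay within 0.1 point of it. The shares were 58.0% and 25.6% in the HA control, 44.6% and 27.4% in HA FOSL1, 27.8% and 13.2% with gRNA2, and 28.5% and 8.26% with gRNA3, higher in positive cells in 5 of 5 samples. Turned round, 56.3% of the 599 VPR control cells at or above the line were positive, against 23.9% of the 1996 cells below it. The line, the gene map and the comparison were chosen after the data were seen, and with the line 0.2 points lower or higher, or with fewer genes placed, the positive share was higher in 5 of 5 samples too. The copy number of these cells' DNA was not measured, and its part in the result was not tested.

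**Figure D5:**
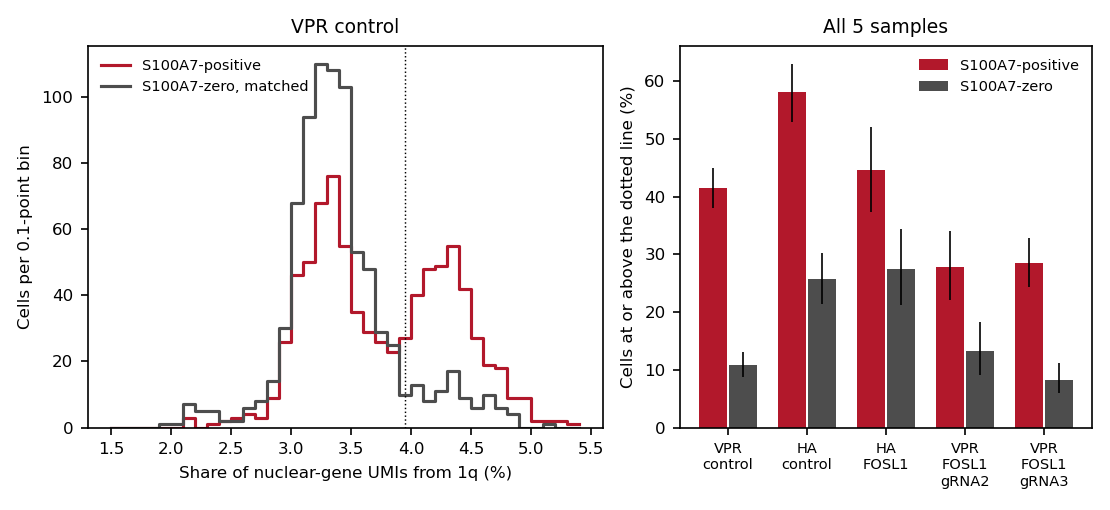
Left, number of VPR control cells (vertical axis) by the share of nuclear-gene UMIs from the long arm of chromosome 1 (horizontal axis, %), S100A7-positive and matched zero cells, with the dotted line at 3.95%. Right, share of cells at or above that line in each sample with exact binomial intervals for counting error; it is higher in positive cells in all 5 samples, at 41.4% against 10.8% in the VPR control.

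The named genes were also compared on each side of the line. Below it, 477 positive and 477 matched zero cells differed by 1.5-fold in 34 genes higher and 58 lower, and at or above it 157 and 157 cells in 55 and 79. All 15 high and all 15 low genes kept their side in both, but they were chosen in these same cells by the same classes, so this is a description and no support. S100A8 stood at 3.32 below the line and 2.50 above it, S100A9 at 2.03 and 1.60, INHBA at -1.80 and -1.92 and CAV1 at -1.19 and -0.73. HMGN5 was the 1 of 30 whose counting interval held 0 on a side, at 0.19 (-0.14 to 0.52) below the line. The median of the long-arm genes was 0.01 on each side, which the split by that share itself brings about.

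A short motif search closes the description of the member genes. TATAAA was found in 27.3% of 33 start windows of genes 1.5-fold higher in the VPR control and in 13.2% of 76 windows of genes lower, against 3.71% of 6921 windows of genes at 20 CPM or more and 7.33% of 35116 windows in all. GGAATG was in 12.1% of windows of higher and 22.4% of windows of lower genes, against 11.4% at 20 CPM or more. TGANTCA was in 9.09% and 9.21%, against 4.67%. Several windows can belong to 1 gene, and overlapping windows can hold the same TATAAA, as with S100A8. The share in higher genes rests on 9 windows. A match is a string of letters, not a site.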

How the data were processed

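The authors deposited raw UMI counts for each barcode, made with Cell Ranger 4 on hg38 per the file headers and the submitters' processing notes. The deposited table of hashtag assignments gives each called cell a sample and a probability as a fraction (lowest used 0.900); the sources used here name no tool for it. The hashtags with the prefix GOF were taken as the HA samples by elimination. Of 21228 called cells 15371 had 1 sample, and multiplets (24.4%) were left out; doublets within a sample were not called. Kept cells had at least 1500 genes and at most 20% mitochondrial UMIs, with 42058533 to 85556699 UMIs a sample.

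Positive and zero cells were matched on total UMIs (largest gap 7.47%), summed, and scaled to CPM without S100A7. Ratios are log2 of CPM + 1, which understates low genes, with exact conditional binomial intervals at 95% (Clopper-Pearson for shares, exact Poisson for levels). The other 4 samples were fitted with edgeR 4.0.16 (glmQLFit, TMM, filterByExpr, 3 residual degrees of freedom, Benjamini-Hochberg over all genes tested), and DESeq2 1.42.0 was an alternative. The code was tested on simulated data.

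The named genes are the 15 highest and 15 lowest ratios in the VPR control at a mean of 20 CPM whose interval leaves out 0, the S100 genes, and the 10 largest changes each way in the other 4 samples at an adjusted p under 0.05 on 1 side in 4 of 4, and at an average of 20 CPM over the 8 summed profiles. Members and the 33 gene lists were chosen with earlier results of these data known. Genes were placed on RefSeq chromosomes (99.2% of genes at 20 CPM). The chromosome 1 line was first set by eye at a share that a fuller gene map made unfit, and was then replaced by the rule in the text.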

Additional observations from a re-analysis of the deposited data

Results flagged for a closer look

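TAGLN, a smooth-muscle actin-binding protein, had a log2 ratio of positive over zero cells of -1.94 in the HA control, against -0.63 to -0.44 in the other 3 of the 4 samples tested. The gap to the nearest sample was 0.876 of the whole range. Of 34 genes looked at this was the 1 set apart in this way, and chance alone gives about 1 in 20. In the VPR control TAGLN stood at -1.49.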

How the results depend on the processing

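Counts and shares depended on the settings as follows, whereas none of the 30 genes highest and lowest in the VPR control changed sign under the alternatives run. In the VPR control the genes 1.5-fold higher and lower numbered 106 and 147 at a floor of 5 CPM and 21 and 29 at 50 CPM, against 32 and 63. With 2 zero cells for each positive cell, which 658 positive cells could be given and which left positive cells deeper (medians 17210 and 15731.5 UMIs), 41 were lower. With at most 10% mitochondrial UMIs, which left 173 cells a class, 82 were higher. Within cells at or above the chromosome 1 line, an alternative chosen after seeing the data, 55 were higher. The share of positive cells was 49.3% at 1 or more UMIs, 24.5% at 5 or more and 17.7% after thinning. At a floor of 5 CPM the medians of 4 lists changed sign, to -0.02 for immediate early genes, -0.08 for secreted defence, -0.03 for junction genes and 0.03 for serpins and proteases. The cause of these shifts was not tested.

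In the other 4 samples 0 genes were higher and 0 lower with no replicate block. With the VPR control added, whose cells chose the genes, 797 and 965 passed, without the 10% of cells with the most UMIs 266 and 274, and with DESeq2 131 and 138. Leaving out 1 sample in turn gave 200 to 425 higher (fewest without the HA control) and 208 to 446 lower (fewest without gRNA3); without gRNA2 they were 214 and 240. Besides the fit with no block, calls were lost for TFPI2 without any 1 of the HA control, gRNA2 and gRNA3 and with DESeq2, for NAV1 without the HA control and with DESeq2, for TAGLN without the deepest cells and with DESeq2, and for IGFBP5 and CST6 with DESeq2. Of 595 fold changes of named genes under alternatives 530 kept their side of the threshold, and of 390 ratios in the VPR control 299 stayed within their counting interval. Free RNA limits what single S100A7 UMIs show.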
